A study of Homo sapiens with 4 samples.

Results

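The transcripts followed here are those of 10 genes that insulin and the FOXO transcription factors are known to control in liver, IGFBP1, DEPP1, BMF, PCK1, G6PC1, INSR, IRS2, PPARGC1A, KLF15 and PDK4. They were picked by name from what is known of the pathway, with earlier results of these same libraries in view, so their differences between libraries are described and not tested. All 10 were found among the 32479 genes of the deposited table. RNA was sequenced from 2 human liver cancer lines, HepG2, which came from a hepatoblastoma, and PLC/PRF/5, a hepatoma line that carries hepatitis B virus DNA. Each line, labelled wild type, was sampled once untreated at 24 h and once after 24 h with 20 uM PF-429242, which gave 4 libraries and 1 library per group. PF-429242 inhibits site-1 protease, the Golgi enzyme that makes the first cut in the release of SREBP and ATF6 from the membrane. All cells grew in minimal essential medium with fetal bovine serum, and the labels name neither a vehicle for the controls nor an addition of insulin. The spread between cultures is unknown here, because no group was repeated.

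Insulin binds its receptor and, through the IRS adaptors, phosphatidylinositol 3-kinase and AKT, has the FOXO factors phosphorylated and kept out of the nucleus. When the signal is low, FOXO proteins enter the nucleus and switch on genes for glucose output, for sparing glucose as a fuel and for restraint of growth. In hepatocytes IGFBP1, PCK1 and the glucose-6-phosphatase gene G6PC1 are classic members of this response, while IRS2 and INSR are induced as a feedback on the pathway itself. FOXO factors bind DNA at the core GTAAACA, and related insulin response elements hold the core CAAAACA.

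Promoter sequences of 4 of the genes show where these cores lie in genes that differed much or little with the drug. Each runs 5′ to 3′ on the gene's own strand, from 250 bases before the RefSeq start to 50 after it, with exact matches to either core, on either strand, in capitals. The DEPP1 and BMF windows belong to genes with higher levels after treatment in both lines. The IRS2 and G6PC1 windows belong to genes with little difference in PLC/PRF/5 and with few fragments in HepG2.
DEPP1 (GRCh38.p14, chr10:44978760-44979059, minus strand): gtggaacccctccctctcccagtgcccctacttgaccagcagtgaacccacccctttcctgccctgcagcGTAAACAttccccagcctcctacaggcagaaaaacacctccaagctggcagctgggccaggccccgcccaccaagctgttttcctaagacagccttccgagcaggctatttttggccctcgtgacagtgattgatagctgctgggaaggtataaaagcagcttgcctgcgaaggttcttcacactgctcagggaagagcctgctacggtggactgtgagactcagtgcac
BMF (GRCh38.p14, chr15:40108830-40109129, minus strand): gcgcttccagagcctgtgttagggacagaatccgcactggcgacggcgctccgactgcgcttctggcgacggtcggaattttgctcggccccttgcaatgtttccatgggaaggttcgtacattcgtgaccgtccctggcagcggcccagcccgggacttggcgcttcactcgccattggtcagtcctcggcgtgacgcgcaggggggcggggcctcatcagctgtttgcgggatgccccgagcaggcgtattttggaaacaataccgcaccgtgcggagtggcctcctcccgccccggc
IRS2 (GRCh38.p14, chr13:109786534-109786833, minus strand): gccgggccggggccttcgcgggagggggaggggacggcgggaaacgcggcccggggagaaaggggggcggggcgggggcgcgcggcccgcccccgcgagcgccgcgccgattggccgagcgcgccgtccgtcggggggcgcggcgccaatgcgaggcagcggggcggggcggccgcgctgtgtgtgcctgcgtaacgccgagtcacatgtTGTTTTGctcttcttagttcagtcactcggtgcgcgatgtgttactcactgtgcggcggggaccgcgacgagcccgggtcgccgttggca
G6PC1 (GRCh38.p14, chr17:42900549-42900848, plus strand): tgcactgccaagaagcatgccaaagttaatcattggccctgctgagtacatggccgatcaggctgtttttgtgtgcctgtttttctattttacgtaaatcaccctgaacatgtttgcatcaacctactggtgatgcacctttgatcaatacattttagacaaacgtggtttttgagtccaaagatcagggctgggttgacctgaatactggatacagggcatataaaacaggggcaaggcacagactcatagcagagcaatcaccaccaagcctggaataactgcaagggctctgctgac
The DEPP1 window holds GTAAACA on the gene's strand, 180 to 174 bases before the start. The IRS2 window holds the reverse complement of CAAAACA, 40 to 34 bases before the start. Neither core was found in the BMF and G6PC1 windows. The table of RefSeq promoters held 8 of the 10 genes in 10 windows, without IGFBP1 and PCK1, and the windows of INSR, PPARGC1A, KLF15 and PDK4 and a second one of BMF had no match either. Of all 35116 windows of 300 bases, 3.42% held GTAAACA on either strand and 4.92% held CAAAACA on either strand. The cores share their last 5 letters. A match is a run of letters and not a measured binding site. The absence of one concerns exact matches in this window alone, since elements that depart from these letters were not sought.

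The values are FPKM, the fragment count of a gene divided by its length and by the library's total. Totals of 16722201 to 21387298 fragments per library were recovered from the values, and between 11428 and 12441 genes reached 1 FPKM. The mitochondrial genome took 16.6% of fragments in control and 27.6% in treated HepG2, and 21.3% and 28.2% in PLC/PRF/5, and the total by which FPKM is scaled includes these fragments. Over all genes that reached 1 FPKM in one or both libraries of a line, the median log2 ratio of treated over control was -0.17 in HepG2 and -0.13 in PLC/PRF/5, so a gene near these values held its place among all genes. Of the hepatocyte markers, 6 of 6 were above 1 FPKM in at least 1 library, with sums of 7257 and 6255 FPKM in control and treated HepG2 and 1398 and 2088 FPKM in PLC/PRF/5. No fibroblast marker reached 1 FPKM, with DCN at 0 in both HepG2 libraries and LUM at 0 in all but treated PLC/PRF/5. Of the endothelial markers, 3 of 5 were among the genes listed, and PECAM1 alone reached it, at up to 1.36 FPKM. Of the blood markers 3 of 5 were listed, and LYZ alone reached it, at 179 to 504 FPKM, with CD68 at 0 in both controls. KDR, TEK, PTPRC and HBB were not listed, so their levels are unknown. The part of these levels in the results was not tested.

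IGFBP1, DEPP1 and BMF had higher levels with PF-429242 in both lines. These genes carry out FOXO's effects in different places: IGFBP1 encodes a secreted protein that binds insulin-like growth factors, DEPP1 a protein that FOXO factors induce under fasting and stress, and BMF a BH3-only protein that promotes apoptosis. IGFBP1 (ENSG00000146678, chromosome 7, 45888357 to 45893668 on GRCh38) had 17.8 FPKM in untreated HepG2, 108 in treated HepG2, 230 in untreated PLC/PRF/5 and 494 in treated PLC/PRF/5. Treated HepG2 thus stayed below untreated PLC/PRF/5. The treated-to-control ratio was 6.05 in HepG2 (95% interval 5.50 to 6.66) and 2.14 in PLC/PRF/5 (2.08 to 2.20). These intervals, like all later ones, hold the error of counting fragments alone and say nothing of the spread between cultures. In FPKM the gap was 89.8 in HepG2 and 263 in PLC/PRF/5, so the line with the smaller ratio had the larger gap. The HepG2 ratio was 2.82 times the PLC/PRF/5 ratio (95% counting interval 2.56 to 3.12). On log2(FPKM + 1) this difference between the lines ranked 11 from the top among 10650 nuclear protein-coding genes with at least 1 FPKM in 2 or more libraries.

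DEPP1 (ENSG00000165507, chromosome 10, 44970981 to 44978810) had similar levels and similar ratios in both lines. It stood at 3.19 FPKM in untreated and 16.8 in treated HepG2, and at 2.45 in untreated and 11.9 in treated PLC/PRF/5. Both treated libraries were above both controls. The ratio was 5.27 in HepG2 (4.46 to 6.27) and 4.85 in PLC/PRF/5 (4.06 to 5.82), and the quotient of these ratios, 1.09 (0.852 to 1.39), included 1. By log2 ratio DEPP1 ranked 2 among 9979 nuclear protein-coding genes in HepG2, where IGFBP1 ranked 1, and it ranked 1 among 10598 in PLC/PRF/5, where IGFBP1 ranked 8. Over all measured genes, noncoding and mitochondrial ones included, DEPP1 ranked 5 in HepG2 and 8 in PLC/PRF/5, and IGFBP1 ranked 3 and 135. DEPP1 lies within the span of RASSF4 on the opposite strand, and the sources used here do not say if counting used strand. RASSF4 was at 5.51 and 3.70 FPKM in control and treated HepG2 and at 1.49 and 1.77 in PLC/PRF/5, a pattern that differs from that of DEPP1.

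BMF (ENSG00000104081, chromosome 15, 40087890 to 40108892) was at 3.56 FPKM in untreated and 7.54 in treated HepG2, and at 1.23 in untreated and 4.29 in treated PLC/PRF/5. Each treated library was above both controls, and untreated HepG2 was the higher of the controls. The ratio was 2.12 in HepG2 (1.86 to 2.42) and 3.50 in PLC/PRF/5 (2.88 to 4.26). Here the larger ratio was that of PLC/PRF/5, the reverse of IGFBP1: the HepG2 ratio was 0.606 times the PLC/PRF/5 ratio (0.482 to 0.763). On the log2(FPKM + 1) scale, which understates changes of low genes, BMF was at 0.91 in HepG2 and 1.25 in PLC/PRF/5, ranks of 11 and 4 among nuclear protein-coding genes and of 139 and 82 among all measured genes.

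**Figure D1:**
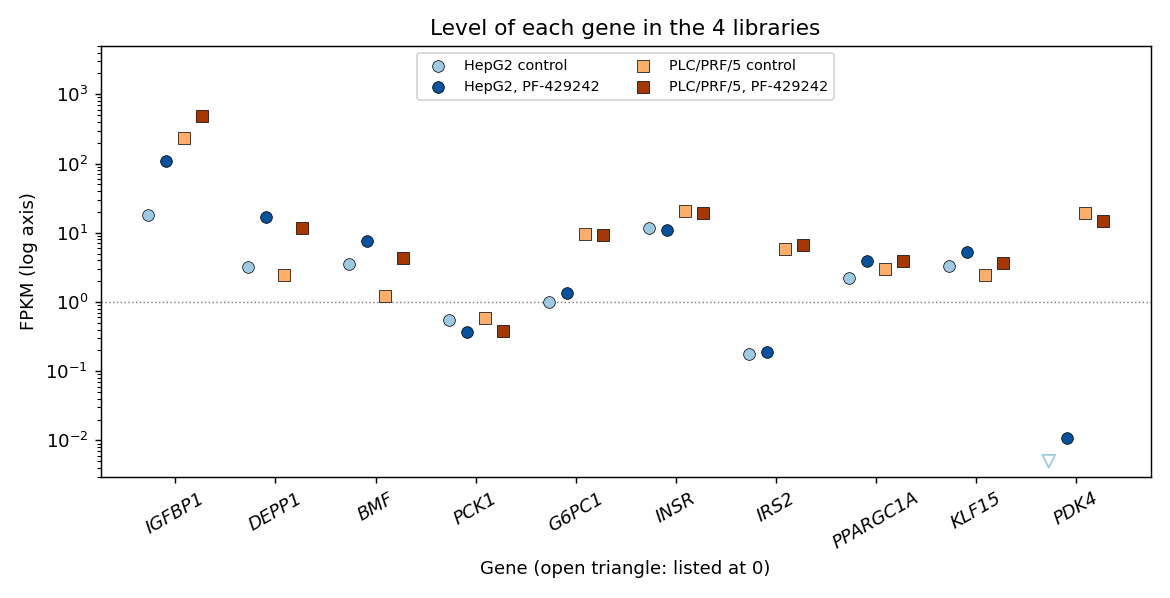
FPKM of the 10 genes (log axis) in each of the 4 libraries, 1 point per library, with circles for HepG2 and squares for PLC/PRF/5, pale for control and dark for treated. The dotted line marks 1 FPKM and the open triangle a value listed at 0. The dark points of IGFBP1, DEPP1 and BMF lie above the pale ones in both lines, and IRS2, G6PC1 and PDK4 differ mainly between lines.

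A log2 ratio of (FPKM + 1) of 1 or more, a 2-fold difference, was reached by 2 of the 7 genes that had at least 1 FPKM in HepG2, IGFBP1 and DEPP1, against 1.00% of all 12347 genes so measured. In PLC/PRF/5 it was reached by 3 of 9, IGFBP1, DEPP1 and BMF, against 1.48% of 13144 genes; with the libraries rescaled to equal sums of FPKM, DEPP1 alone reached it there. Nothing is read from these shares, since the genes were picked with the same values known. None of the 10 was lower by 2-fold or more, where 2.14% of genes were in HepG2 and 1.82% in PLC/PRF/5. PCK1 in both lines, and IRS2 and PDK4 in HepG2, were below 1 FPKM and did not enter these counts. The median log2 ratio of the genes measured was 0.58 in HepG2 and 0.32 in PLC/PRF/5.

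PPARGC1A and KLF15 had moderately higher levels with the drug in both lines. PPARGC1A (ENSG00000109819, chromosome 4, 23755041 to 23904089) encodes PGC-1alpha, a coactivator of FOXO1 and HNF4A at gluconeogenic genes. It was at 2.25 FPKM in untreated and 3.85 in treated HepG2, and at 2.97 and 3.95 in untreated and treated PLC/PRF/5. The treated libraries were nearly alike, and the controls differed more. Its ratio was 1.71 in HepG2 (1.52 to 1.93) and 1.33 in PLC/PRF/5 (1.20 to 1.48). A pair of antisense genes that overlap PPARGC1A were each at most at 0.399 FPKM in every library. KLF15 (ENSG00000163884, chromosome 3, 126342635 to 126357442), a zinc finger factor that promotes amino acid use for gluconeogenesis, was at 3.29 and 5.22 FPKM in untreated and treated HepG2, and at 2.44 and 3.70 in PLC/PRF/5. Its ratios of 1.59 (1.30 to 1.94) and 1.52 (1.21 to 1.90) were close to each other, with a quotient of 1.05 (0.780 to 1.40). By log2 ratio PPARGC1A and KLF15 ranked 30 and 40 in HepG2 and 543 and 314 in PLC/PRF/5 among nuclear protein-coding genes.

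The gluconeogenic enzyme genes did not share the higher levels of IGFBP1. PCK1 (ENSG00000124253, chromosome 20, 57561080 to 57568112), which encodes the cytosolic phosphoenolpyruvate carboxykinase, was low throughout, at 0.552 FPKM (63 fragments) in untreated and 0.367 (51) in treated HepG2, and at 0.589 (86) and 0.379 (44) in PLC/PRF/5. Both treated libraries were below both controls. The ratio was 0.665 in HepG2 (0.451 to 0.978) and 0.644 in PLC/PRF/5 (0.438 to 0.937). At this depth the upper bounds lay just under 1, with no allowance for the shift of all genes. On log2(FPKM + 1), which understates changes of low genes, PCK1 lay at -0.18 in HepG2 and -0.20 in PLC/PRF/5. Relative to the median of all genes these values were -0.01 and -0.07. That closeness depends on the pseudocount. With a pseudocount of 0.1 PCK1 lay at -0.48 in HepG2 and -0.52 in PLC/PRF/5, below the medians of all genes, -0.21 and -0.16. G6PC1 (ENSG00000131482, chromosome 17, 42900797 to 42913369), named G6PC in older annotation, encodes the catalytic subunit of glucose-6-phosphatase, which releases free glucose. It was at 0.998 FPKM in untreated and 1.34 in treated HepG2, with 55 and 90 fragments, and at 9.60 and 9.40 in PLC/PRF/5. The difference within each line was small beside the one between lines. The ratio of treated to control, 1.34 in HepG2 (0.951 to 1.92) and 0.978 in PLC/PRF/5 (0.871 to 1.10), had an interval that included 1 in both lines.

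Of INSR and IRS2, the receptor and the adaptor at the head of the pathway, INSR differed little with the drug in both lines and IRS2 in PLC/PRF/5. INSR (ENSG00000171105, chromosome 19, 7112255 to 7294034) was at 11.8 and 11.0 FPKM in untreated and treated HepG2 and at 20.8 and 19.4 in PLC/PRF/5. Its ratios, 0.930 (0.877 to 0.986) and 0.929 (0.889 to 0.970), were nearly equal. On log2(FPKM + 1) INSR lay at -0.10 in each line, which was 0.08 and 0.03 above the median of all genes in HepG2 and PLC/PRF/5. IRS2 (ENSG00000185950, chromosome 13, 109752698 to 109786568) was at 0.176 FPKM (24 fragments) in untreated and 0.187 (31) in treated HepG2, too few to show a moderate difference, since the interval of the ratio of 1.06 ran from 0.603 to 1.89. In PLC/PRF/5 it was at 5.86 and 6.61 FPKM, a ratio of 1.13 (1.03 to 1.24).

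PDK4 (ENSG00000004799, chromosome 7, 95583499 to 95596491) encodes a kinase that shuts off pyruvate dehydrogenase and so spares glucose in fasting. It was almost unseen in HepG2, with 0 fragments in the control and 1 fragment in the treated library. In PLC/PRF/5 it stood at 19.5 FPKM untreated and 15.0 treated, a ratio of 0.767 (0.712 to 0.826). PDK4 was thus lower in treated PLC/PRF/5, where IGFBP1, DEPP1 and BMF were higher. No fold is given within HepG2, where both libraries were under the floor of 3 fragments.

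**Figure D2:**
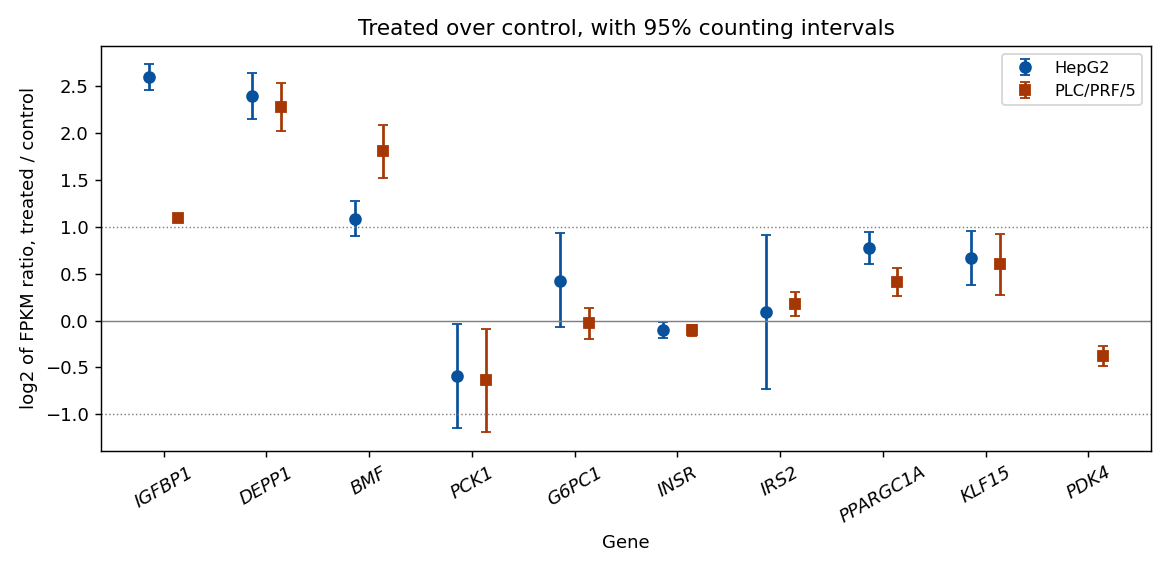
log2 of the FPKM ratio of treated to control for each gene, circles for HepG2 and squares for PLC/PRF/5, with 95% exact conditional binomial intervals that cover counting error only. Dotted lines mark 2-fold. IGFBP1, DEPP1 and BMF lie above 1 in both lines, PCK1 lies below 0 in both, and PDK4 has no HepG2 ratio.

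Several of these genes differed more between the untreated lines than with the drug. Of the 9 genes at 1 FPKM or more in either control, 4 were at least 2-fold lower in HepG2, IGFBP1, G6PC1, IRS2 and PDK4. The share over all 13861 genes was 13.1%. BMF alone was higher by 2-fold, where 10.0% of all genes were. G6PC1, IRS2 and PDK4 were below 1 FPKM in the HepG2 control, at 0.998, 0.176 and 0, and were counted through PLC/PRF/5 alone. Such genes could only lie lower in HepG2, and the genes were picked with these values known, so nothing is read from these shares. Untreated PLC/PRF/5 had 12.97 times as much IGFBP1 as untreated HepG2 (11.8 to 14.2), 9.62 times as much G6PC1 (7.31 to 12.9) and 33.3 times as much IRS2 (22.2 to 52.2). PDK4 had 0 fragments in the HepG2 control, and the exact interval that was used for the other ratios began at 401-fold. Set against the floor of 3 fragments, its level in PLC/PRF/5 was 494-fold higher, a value that is not a lower bound. INSR was 1.76 times as high in PLC/PRF/5 (1.67 to 1.85). DEPP1 and KLF15 leaned the other way, with HepG2 at 1.30 (1.04 to 1.64) and 1.35 (1.07 to 1.70) times the PLC/PRF/5 level, and BMF at 2.90 times (2.37 to 3.55). With 1 culture of each line, the line and the library cannot be told apart.

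Genes whose response was most like that of DEPP1 were sought by the Euclidean distance of the log2 ratios of both lines, over 10649 other nuclear protein-coding genes. The nearest was CYP1A1, a target of the aryl hydrocarbon receptor, at a distance of 0.81, followed by IGFBP1 at 0.92 and BMF at 1.35. INHBE, which encodes an activin subunit made in liver, and BHLHA15, a factor of secretory cells, came next at 1.59 each. For IGFBP1 the nearest were DEPP1 at 0.92, CYP1A1 at 1.00, the cystine transporter gene SLC7A11 at 1.48, the peptide hormone gene ADM2 at 1.55 and the mTOR inhibitor gene DDIT4 at 1.60. INHBE was at 3.65 and 7.99 FPKM in untreated and treated HepG2 and at 5.77 and 10.7 in PLC/PRF/5. DEPP1 and IGFBP1 ranked near the top in both lines, so their nearest genes were mostly ones with smaller ratios. The log2 ratios of INHBE were 0.95 in HepG2 and 0.79 in PLC/PRF/5, beside 2.09 and 1.90 for DEPP1. Since the ratios of all these genes rest on the same libraries, the order is a description of them.

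**Figure D3:**
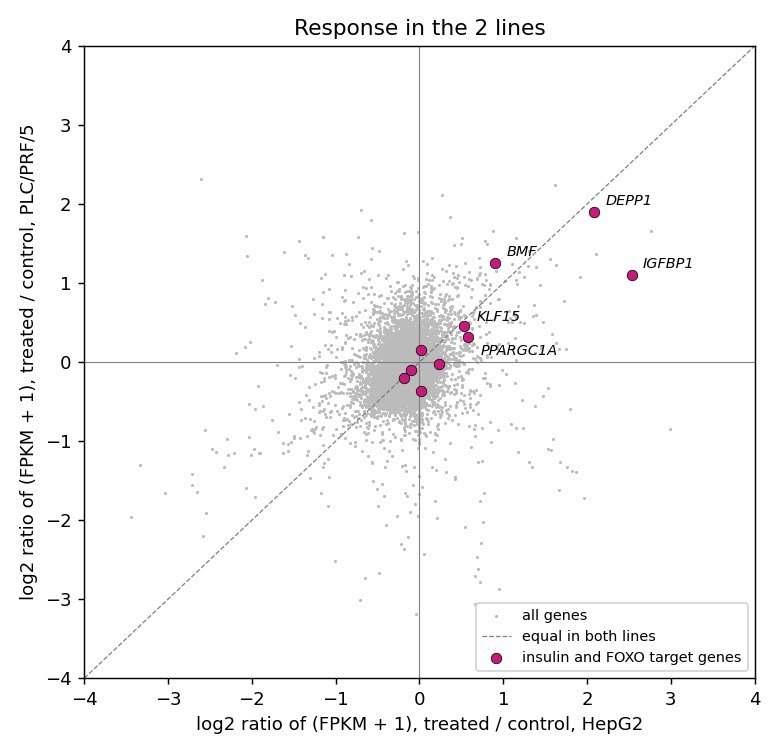
log2 ratio of (FPKM + 1), treated over control, in HepG2 (horizontal) and PLC/PRF/5 (vertical), for 12838 genes at 1 FPKM or more in 2 or more libraries (grey, 6 of them outside the axes) and the 10 insulin and FOXO target genes (coloured, PCK1 drawn though it is below 1 FPKM). The dashed line marks equal ratios. DEPP1 lies close to that line at 2.09 and 1.90, IGFBP1 to its right at 2.53 and 1.10, and BMF to its left at 0.91 and 1.25.

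Other genes of the pathway were read from 6 lists of 105 genes, of which 104 were in the table and 90 reached 1 FPKM in control or treated cells of HepG2, and as many in PLC/PRF/5. The FOXO genes themselves differed little. FOXO1 was at 6.78 and 7.17 FPKM in untreated and treated HepG2 and at 7.19 and 8.33 in PLC/PRF/5. FOXO3 was at 7.34 and 7.30 and at 4.19 and 4.48 FPKM in the same order. FOXO4 was at 3.66 and 2.71 FPKM in HepG2 and at 2.75 and 3.59 in PLC/PRF/5, and FOXO6 was at most at 0.221 FPKM in every library. None of the 3 measured FOXO genes differed by 2-fold.

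Other FOXO-induced genes, which include cell cycle, antioxidant and autophagy genes, differed less with the drug than IGFBP1 and DEPP1. Of the 27 measured among 32, 13 were above 0 in HepG2 and 15 in PLC/PRF/5, and none was higher or lower by 2-fold in either line. Their median log2 ratio was -0.01 in HepG2 and 0.08 in PLC/PRF/5, beside -0.17 and -0.13 for all genes. The largest mean change was that of the selenium carrier gene SELENOP, at 51.8 and 57.0 FPKM in HepG2 and 9.12 and 17.6 in PLC/PRF/5. Next came EIF4EBP1, which encodes a translation repressor that mTOR controls, at 29.2 and 44.6 FPKM and at 43.9 and 52.2. The FPKM ratio in HepG2 and PLC/PRF/5 was 1.10 and 1.94 for SELENOP, and 0.886 and 1.97 for TXNIP of the same list.

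The insulin signalling chain, from IGF1R and the adaptors to AKT, the TSC complex and mTOR, held no gene past 2-fold among 32 measured in HepG2 and 33 in PLC/PRF/5. Its median was -0.18 in HepG2, beside -0.17 for all genes, and -0.01 in PLC/PRF/5, beside -0.13. GRB14, an adaptor that inhibits the insulin receptor, was at 3.66 and 2.44 FPKM in untreated and treated HepG2 and at 8.52 and 5.30 in PLC/PRF/5. ENPP1, an ectoenzyme that also inhibits the receptor, was at 14.1 and 19.1 FPKM and at 4.76 and 7.39.

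Gluconeogenesis and its regulators had a median of -0.06 in HepG2 (16 genes) and -0.01 in PLC/PRF/5 (15 genes), with none past 2-fold. The mitochondrial carboxykinase gene PCK2 was at 30.4 and 39.8 FPKM in HepG2 and at 15.2 and 22.0 in PLC/PRF/5, higher after treatment. The cytosolic PCK1, below 1 FPKM in every library, was lower, at FPKM ratios of 0.665 in HepG2 and 0.644 in PLC/PRF/5. CEBPB, a factor that binds the PCK1 promoter, was at 18.9 and 27.9 FPKM and at 25.3 and 35.9. Of PDK4's relatives and the opposing phosphatases, 4 were measured in HepG2 (median -0.23) and 5 in PLC/PRF/5 (median -0.13), none past 2-fold. PDK3 was at 2.55 and 1.89 FPKM in HepG2 and at 5.42 and 3.87 in PLC/PRF/5, and PDP2 at 6.43 and 4.85 and at 4.78 and 4.28.

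Genes that insulin induces in liver were mostly lower with the drug, where IGFBP1 was higher. Of 8 measured in HepG2, 4 were lower by 2-fold or more, against 2.14% of all genes, and 7 were below 0, with a median of -1.09. In PLC/PRF/5 1 of 7 was lower by 2-fold on log2(FPKM + 1), FASN, against 1.82% of all genes, and 5 were below 0, with a median of -0.75. Without the pseudocount SREBF1 and ACACA also lay past 2-fold there, at FPKM ratios of 0.466 and 0.474. The 2 above 0 were HK2, a hexokinase gene at 29.6 and 34.4 FPKM in HepG2 and 4.93 and 8.47 in PLC/PRF/5, and MLXIPL, which encodes the glucose-responsive factor ChREBP, at 30.6 and 25.5 and at 4.83 and 7.33. SREBF1, which encodes the insulin-responsive SREBP-1, was at 6.54 and 1.98 FPKM in untreated and treated HepG2 and at 7.95 and 3.70 in PLC/PRF/5, log2(FPKM + 1) ratios of -1.34 and -0.93. The others past 2-fold in HepG2 were the lipid remodelling gene PNPLA3, the fatty acid synthase gene FASN and the acetyl-CoA carboxylase gene ACACA, at -1.69, -1.57 and -1.49. These are also targets of SREBP, whose cleavage needs site-1 protease. The part of SREBP or of insulin signalling in their levels was not tested. Nothing is read from the shares of this list, since it was chosen with earlier results of these data known.

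The only test that the labels allow treats the 2 lines as replicates of the treatment. In limma with the line as a block, 0 of 12838 genes passed an adjusted p of 0.05 (Benjamini and Hochberg), a share of 0% in each direction, while 2488 had an unadjusted p below 0.05. Of the 91 genes of the 6 lists in that fit, 0 passed, and 6 higher and 14 lower had an unadjusted p below 0.05. That balance turned with the scaling, to 18 higher and 5 lower under median-of-ratios scaling and 16 and 5 of 92 with totals over nuclear genes, so no direction is read from it. The smallest adjusted p among them by limma was 0.193, shared by several genes, among them FASN (log2 change -1.35, SE 0.13), SREBF1 (-1.13, SE 0.14) and CEBPB (0.52, SE 0.07), each with the same sign in both lines. The fit has 1 residual degree of freedom, so its limits are wide. With the libraries rescaled to equal sums, the median of all genes lay at -0.45 and -0.40. There limma called 46 of 12760 genes higher and 5980 lower, and 38 of the 92 list genes lower.

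**Figure D4:**
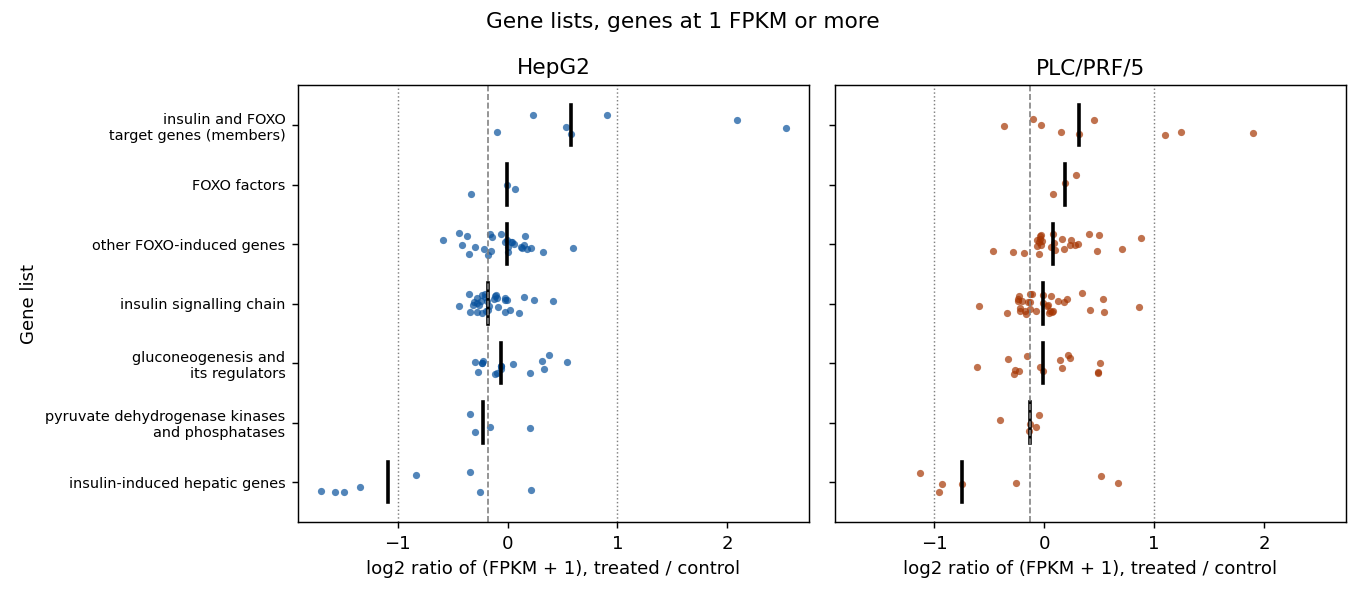
log2 ratio of (FPKM + 1), treated over control, for the measured genes of each list in HepG2 (left) and PLC/PRF/5 (right), 1 point per gene with vertical jitter. Black bars are list medians, the dashed line is the median of all genes (-0.17 and -0.13) and dotted lines mark 2-fold. The insulin-induced genes have the lowest medians, -1.09 and -0.75, and no gene of the other wider lists lies past 2-fold.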

How the data were processed

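The authors deposited FPKM values, 1 column per library; TopHat2 and the build GRCh38 are named in the submitters' processing notes. The sources used here do not give the TopHat2 version, counting program, strand setting or annotation release. Symbols, positions and union exon lengths came from GENCODE 29 (32354 identifiers matched). The members and gene lists were chosen with earlier results of these data known.

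Whole fragments were recovered from the FPKM step of 1 fragment, with the gene length allowed to vary until all 4 values were whole within 0.02; PDK4, at 0 and 1 fragment in HepG2, fixes its length less well. Ratios have 95% exact conditional binomial (Clopper-Pearson) intervals, and quotients of ratios 95% normal intervals on the log scale. Both cover counting error only.

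Log2 ratios used FPKM + 1, at least 1 FPKM in either library and calls at 2-fold. limma 3.58.1 in R 4.3.3 (lmFit, eBayes with trend, line as block) used genes at 1 FPKM or more in 2 or more libraries, and was tested on simulated data. Python 3.11.15 and scipy 1.17.1 did the rest. Besides the 10 genes, the text names list genes past 2-fold in either line and the 2 of each list with the largest mean change. All FOXO genes and the 5 genes nearest to DEPP1 and IGFBP1 in response are named too. RASSF4, HK2, MLXIPL, TXNIP, TRIB3 and the genes in the closing section were added after their values were seen. Alternatives were other pseudocounts, filters, thresholds and scalings, and limma without trend or block. No library was left out.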

Additional observations from a re-analysis of the deposited data

Results flagged for a closer look

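FOXO4 was lower with PF-429242 in HepG2, at a ratio of 0.740, and higher in PLC/PRF/5, at a ratio of 1.30, with counting intervals that excluded 1 on opposite sides. Other genes of the wider lists did the same. The ratios in HepG2 and PLC/PRF/5 were 0.887 and 1.43 for SOD2, a mitochondrial antioxidant gene, 0.802 and 1.40 for PHLPP1, an AKT phosphatase gene, and 0.820 and 1.25 for the kinase gene SGK2. For the mTOR complex genes RPTOR and RICTOR they were 0.855 and 1.11, and 0.920 and 1.17, and for MLXIPL 0.833 and 1.52. The hepatic glucose transporter gene SLC2A2 went the other way, at 1.34 and 0.641. Among the cell type markers, the ratios in HepG2 and PLC/PRF/5 were 0.936 and 1.84 for ALB, 0.720 and 1.49 for APOA1, 0.834 and 1.69 for TTR, 0.834 and 1.53 for AFP and 0.918 and 1.16 for LYZ. None of the 10 insulin and FOXO target genes met this criterion. The criterion sets each ratio against 1, while the median log2 ratio of all genes was -0.17 in HepG2 and -0.13 in PLC/PRF/5. Relative to the HepG2 median, SOD2 lay at 0.01, RICTOR at 0.07 and RPTOR at -0.03 on log2(FPKM + 1). FOXO4 lay at -0.16, PHLPP1 at -0.11 and SGK2 at -0.06. For some of these genes the opposite direction thus depends on the scaling. These differences between the lines rest on 1 library per group and were not tested.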

How the results depend on the processing

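The counts of the 10 genes past 2-fold with the drug stayed within 1.5 times under every alternative but one. After rescaling to equal sums of FPKM, 1 of them, DEPP1, was past 2-fold in PLC/PRF/5 rather than 3 (BMF 0.998, IGFBP1 0.76 on the log2 scale). Between the controls, 0 rather than 1 was higher in HepG2 with a pseudocount of 5 or at least 5 FPKM. For the wider lists, 1 of 90 measured genes in HepG2 and 4 of 90 in PLC/PRF/5 were higher at a 1.5-fold threshold. The shares over all genes were 2.33% and 4.25%. With totals over nuclear genes, a scaling added after seeing the data, 2 were higher by 2-fold in PLC/PRF/5, against 2.47%. Genes lower by 2-fold numbered 2 in HepG2 with a pseudocount of 5, against 0.283% of all genes. In PLC/PRF/5 they numbered 3 with a pseudocount of 0.1, against 3.68%, and 3 at equal sums, against 2.89%. At 1.5-fold 6 of 90 were lower there, against 5.07%. In the limma fit, equal sums gave 46 of 12760 genes higher and 5980 lower, with 38 of 92 wider list genes lower. Every other alternative gave 0. At equal sums the median log2 ratio over all genes was -0.45 in HepG2 and -0.40 in PLC/PRF/5, and under median-of-ratios scaling it was 0.01 and -0.02. The sign of IGFBP1, DEPP1, BMF, PPARGC1A, KLF15 and PCK1 was the same on all 4 scales in both lines. INSR turned above 0 in both lines and G6PC1 in PLC/PRF/5 under median-of-ratios scaling and nuclear totals, and IRS2 fell below 0 in both lines at equal sums. The share of higher genes among all past 2-fold was 32.0% in HepG2 as reported, 17.8% at equal sums, 45.9% under median-of-ratios scaling and 47.7% with nuclear totals. In PLC/PRF/5 it was 44.8%, 19.2%, 54.0% and 53.4%. With a pseudocount of 0.1, 239 genes were higher and 530 lower in HepG2 and 447 and 484 in PLC/PRF/5, against 124 and 264, and 194 and 239, as reported. With a pseudocount of 5 these numbers were 9 and 35, and 18 and 36, and with at least 5 FPKM 21 and 80, and 38 and 61. Where fragments were few (PCK1, IRS2 and G6PC1 in HepG2), depth limits what can be seen. The line is the one pairing that the labels give; without it as a block limma again called 0 genes, with 112 unadjusted p below 0.05 in place of 2488, and 0 higher and 4 lower in the wider lists.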
